A study of Rattus norvegicus with 2 samples.

Results

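The cardiac myosin heavy chain genes Myh6 and Myh7 were examined in left ventricular (LV) tissue of male Dahl salt-sensitive (DS) rats, a strain that becomes hypertensive and develops heart failure when fed a high-salt diet. The 2 members, Myh6 (ENSRNOG00000025757) and Myh7 (ENSRNOG00000016983), were taken by their Ensembl IDs from the 20174 genes of a rat oligonucleotide chip, and each had 1 probe that gave a signal in both colors on both arrays. The probe sequences were not at hand, so whether each probe reads only its own isoform was not tested. All ratios and balances below carry this limit. RNA of 3 rats was pooled for each group at the stage of heart failure. The control group, NS (−), received 0.3% NaCl, the heart failure group, HS (−), received 8% NaCl, and the treatment group, HS (ch+), received 8% NaCl with 0.25 mg/kg of chaetocin by injection, with 2 doses a week between the ages of 6 and 13 weeks. Chaetocin is a fungal compound that inhibits histone H3K9 methyltransferases of the SU(VAR)3-9 type, and the labels list NS (−) and HS (−) as not treated.

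The HS (−) pool carried the dye Cy5 on both arrays, and its partner in Cy3 was NS (−) on array 1 and HS (ch+) on array 2. Dyes were not swapped, so the dye and the group cannot be told apart within an array, whereas NS (−) and HS (ch+) were labelled with the same dye. There was 1 pool per group and 1 array per comparison, so no value has an error between rats and no test was made. In its place each change was set against a technical SD of 0.16 on the log2 scale (1.12-fold). This is the SD, over 4127 genes, of the log2 difference between the HS (−) signals of the 2 arrays, and it covers hybridization and scanning but not the spread between animals. It comes from Cy5 readings only, so the error of the Cy3 readings and of the dyes is not in it. The technical SD also depends on the background correction. It was 0.47 with the background beside each spot subtracted, 0.32 with normexp and loess, and 0.15 without subtraction. The tissue is a mixture of cell types, in which fewer cells of a type and less RNA per cell cannot be told apart.

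Myosin heavy chain is the motor protein of the thick filament. Myh6 encodes α-myosin heavy chain, which splits ATP rapidly and predominates in the ventricle of adult rats and mice. Myh7 encodes β-myosin heavy chain, the slow and economical form that predominates in the fetal rodent ventricle and in slow skeletal muscle. Thyroid hormone activates Myh6 and represses Myh7, and a shift from the α to the β form is a well-known response of the rodent ventricle to pressure overload and to hypothyroidism.

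The pair of genes lie next to each other on the same strand of chromosome 15, and each carries a microRNA in an intron. The mature microRNAs are shown here because they are transcribed as part of the host genes. Their levels were not measured on these arrays. RefSeq also places rno-miR-3546 within Myh6, on the strand opposite to the gene, and it is not shown. The sequences below are those of RefSeq for the GRCr8 assembly, all on the minus strand, with the seed (bases 2 to 8) in capitals.
rno-miR-208a-5p, Myh6, chr15:32395599-32395620: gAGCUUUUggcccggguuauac
rno-miR-208b-5p, Myh7, chr15:32421681-32421700: aAGCUUUUugcucgcguuau
rno-miR-208a-3p, Myh6, chr15:32395568-32395585: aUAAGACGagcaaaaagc
rno-miR-208b-3p, Myh7, chr15:32421648-32421665: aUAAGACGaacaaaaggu
The 5p arms of both genes shared the seed AGCUUUU, and the 3p arms shared the seed UAAGACG.

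The balance of Myh6 to Myh7 was lower in HS (−) than in NS (−) and moved part of the way back in HS (ch+). In HS (−), Myh6 was at least 4.10-fold lower than in NS (−), where its spot was saturated. This limit holds for loess and Aquantile normalization, and over the alternatives the measured decrease ran from 3.69-fold to 6.69-fold. Myh7 was 5.47-fold higher in HS (−), by the processing of the deposited values, which also gave the ratios with chaetocin that follow. With chaetocin, Myh6 was 1.59-fold higher than in HS (−), and Myh7 was 0.749 of its HS (−) level. Under other processing these ratios ran from 1.27 to 2.61 for Myh6 and from 0.597 to 1.17 for Myh7, whose direction was thus not settled. In HS (ch+), Myh6 was still at least 2.40-fold lower than in NS (−), again after loess and Aquantile normalization. By the processing of the deposited values, Myh7 was 4.09-fold higher in HS (ch+) than in NS (−).

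The Myh6 spot read 65535 for NS (−), 11813 and 15994 for HS (−) on arrays 1 and 2, and 33041 for HS (ch+), in scanner units before any subtraction. The value for NS (−) is the ceiling of the scanner, and Myh6 was the 1 gene of that channel that reached it. The HS (−) readings were at 18.0% and 24.4% of the ceiling and the HS (ch+) reading at 50.4%, so that the remaining 3 spots of Myh6 were within range. The true NS (−) signal lies at or above the ceiling, and under any given processing the measured fold decrease of Myh6 against NS (−) is therefore smaller than or equal to the true one. As the processing itself moves the value, "at least" is written here of the fold decrease after loess and Aquantile normalization, with the mean of both HS (−) readings where HS (−) is compared, and the range over the alternatives is given beside it. Myh6 was the brightest gene of the NS (−) channel, ranked 46 and 38 for HS (−) and ranked 13 for HS (ch+).

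The Myh7 spot read 2274 for NS (−), 10855 and 11465 for HS (−), and 11168 for HS (ch+). All of these were at 3.47% to 17.5% of the ceiling, so Myh7 was measured within range in every channel. NS (−) was the low reading, and the HS (−) and HS (ch+) readings lay close to each other. In rank, Myh7 stood at 452 in NS (−), at 50 and 57 in HS (−) and at 86 in HS (ch+).

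**Figure D1:**
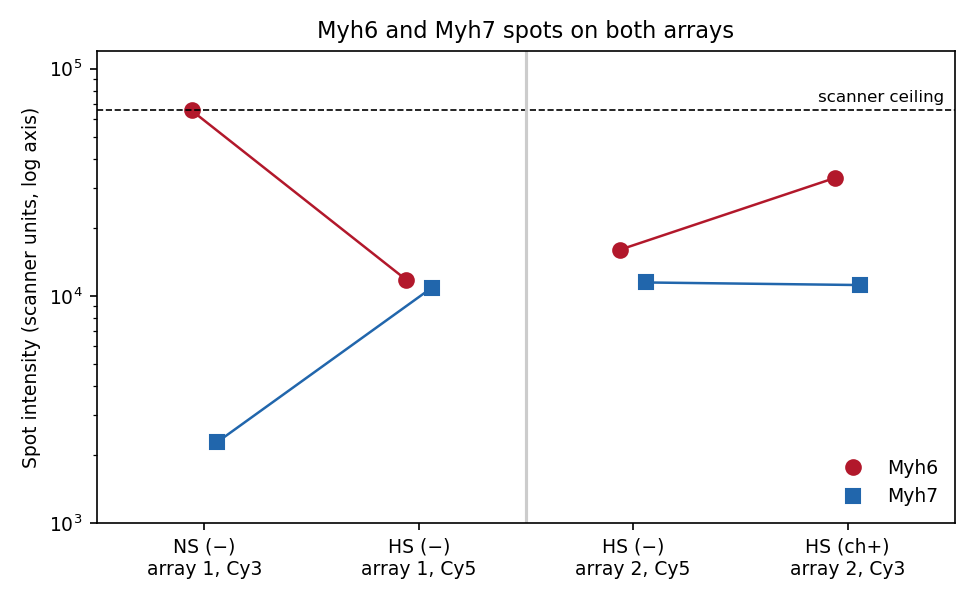
Spot intensity in scanner units (log axis) of Myh6 (circles) and Myh7 (squares) in the pool and dye of each array, 1 spot per point, before background subtraction and centering. The broken line is the scanner ceiling of 65535, at which the Myh6 spot lay in NS (−); lines join the channels of an array, and heights are to be compared within a gene only.

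The deposited intensities were merged from scans at 3 gains, and the background beside the members' spots was high. It was 32.0% of the spot for Myh6 in NS (−), 49.2% and 49.9% in HS (−) and 23.9% in HS (ch+). For Myh7 it was 39.6%, 44.6%, 58.6% and 39.9% in the same order. By contrast, the blank spots, which carry no probe, had means of 24.8 to 51.2, and it was this mean that the authors subtracted. The choice between these backgrounds bears on the values of both genes.

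The HS (−) RNA was read on both arrays, which gives the technical spread of the members themselves. For Myh6, the blank-subtracted signals of HS (−) were 11788 and 15969 on arrays 1 and 2. This difference was 0.44 on the log2 scale, against a median of 0.15 over the 4127 genes whose HS (−) signal reached 100 on each array, and left 0.29 (1.22-fold, 1.83 technical SD) beyond that median. Of the 4127 genes, 253 (6.13%) differed by at least as much. For Myh7, the signals were 10831 and 11440, a difference of 0.079, which lay -0.07 from the median (1.05-fold, 0.417 technical SD). A total of 2634 genes (63.8%) were at least that far from it. The readings of Myh6 were thus farther apart than those of most genes, and those of Myh7 were not. The balance of Myh6 to Myh7 in HS (−) differed by 0.36 on the log2 scale (1.28-fold) between the arrays, which is 1.59 times the technical SD of a difference between a pair of genes, 0.23. Whether both arrays received the same labelled RNA is not stated.

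**Figure D2:**
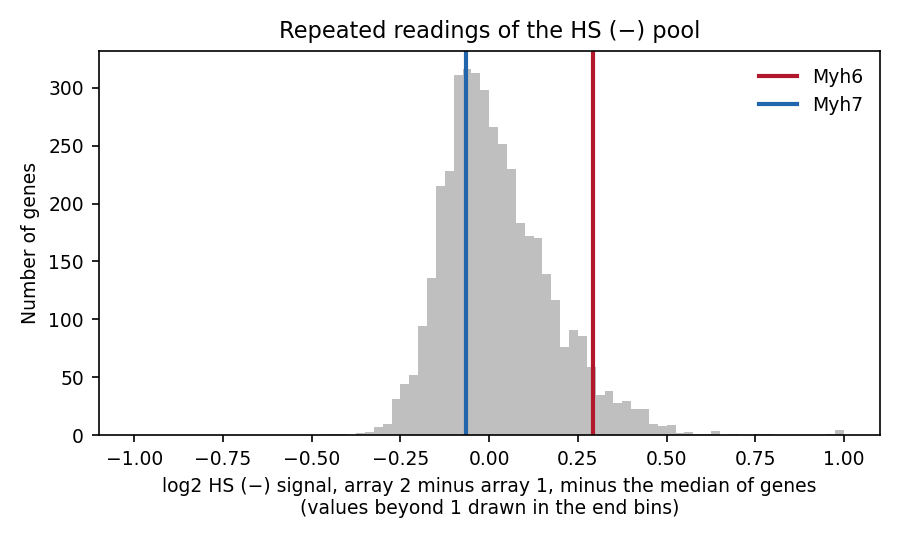
Histogram over 4127 genes of the difference between the HS (−) readings of array 2 and array 1 (log2, minus the median of the genes), with vertical lines for the members. Myh7 lay at -0.07, near the middle, and Myh6 at 0.29, in the upper tail, where 253 genes were at least as far from the median on either side.

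The first question was how the isoforms differed between the failing and the control ventricle. On array 1, Myh6 had a ratio HS (−)/NS (−) of 0.202 (log2 -2.31, 14.4 technical SD) with the NS (−) spot saturated, and 1 of the 4127 genes had a lower ratio. That gene, ENSRNOG00000020251, had a ratio of 0.186 and a low HS (−) signal of 107 on both arrays. Myh7 had a ratio of 5.47 (log2 2.45, 15.3 technical SD), and 46 genes had a higher one. The isoforms thus stood at opposite sides of the distribution, whose median was -0.03 on the log2 scale. A ratio under 0.5, the limit used in the study for a decrease, was found for 1.38% of the genes, among them Myh6. A ratio over 2 was found for 4.17%, among them Myh7. Of the 100 genes with the highest HS (−) signal, 2 were under 0.5 and 17 over 2. That choice rests on the HS (−) signal, the numerator of this ratio, and by itself favors high ratios.

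On the same array, these ratios give a measured balance of Myh6 to Myh7 that was 27.0-fold lower in HS (−) than in NS (−) (log2 -4.76, 21.0 technical SD of a pair difference). Centering of the array shifts both genes alike and cancels from this balance, as does any effect that multiplies a whole channel. With loess and Aquantile normalization, where the HS (−) signals of both arrays can be averaged, Myh6 was at least 4.10-fold lower and the balance at least 24.4-fold lower. Over the 13 alternatives the measured decrease of Myh6 ran from 3.69-fold, without background subtraction, to 6.69-fold. That of the balance ran from 21.1-fold, with the HS (−) reading of array 2 in place of that of array 1, to 32.5-fold.

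The next question was how the isoforms differed between the pools with and without chaetocin under a continued high-salt diet. On array 2, no spot of the members was at the ceiling, and the ratios are measured on both sides. Myh6 had a ratio HS (ch+)/HS (−) of 1.59 (log2 0.67, 4.19 technical SD), and 68 of the 4127 genes had a higher one. Myh7 had a ratio of 0.749 (log2 -0.42, 2.61 technical SD), and 277 genes had a lower one. The median of the genes was 0.02 on the log2 scale. The limit of 1.4 used in the study was passed by 5.86% of the genes, among them Myh6, which did not pass it without background subtraction (1.27). The opposite limit, a ratio under 0.714, was passed by 4.60% of the genes, and Myh7 did not pass it, though it did without background subtraction, at 0.597, or at 0.708 when those values were centered on genes with a signal of 100 or more. Of the 100 genes with the highest HS (−) signal, 25 were under 0.714 and 3 over 1.4, with a median ratio of 0.886. These genes were picked by the same HS (−) signal that stands in the ratio. Myh7 thus lay below the typical gene of similar brightness by less than it lay below the median of all genes.

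Unlike its rise in HS (−), the change of Myh7 with chaetocin depended on the processing. Its ratio HS (ch+)/HS (−) ran from 0.597 without background subtraction to 1.17 when the background beside each spot was subtracted, which turned its direction. Without centering it was 0.972. Relative to the median of the 4127 genes, which removes shifts of a whole channel, it ran from 0.708 to 0.982 over 8 settings and was below 1 in each. Settings that differ only in centering give the same value here. The highest were 0.982 (log2 -0.026) with the background beside each spot subtracted and 0.960 (log2 -0.059) with normexp and loess. Technical SDs in these settings were 0.47 and 0.32, so Myh7 was not set apart from the median there. In contrast, Myh6 was above 1 under all 13 alternatives, from 1.27 to 2.61, and from 1.50 to 2.18 relative to the median of the genes.

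The balance of Myh6 to Myh7 was 2.13-fold higher in HS (ch+) than in HS (−) (log2 1.09, 4.81 technical SD of a pair difference). It lay between 2.12-fold and 2.73-fold under the 13 alternatives. Those that differ only in centering give the same balance, and the deposited table repeats the value as reported. The highest of these came when the HS (−) reading of array 1 was used in place of that of array 2, and it was no higher than 2.32-fold in the others. For HS (ch+)/HS (−), the balance thus varied less with the processing than the ratio of either gene, as the right panel of the plot of all settings shows. In part this follows from its definition, as shifts of a whole channel cancel from it. The size of its change against technical error was less steady. With the background beside each spot subtracted, its log2 change was 1.15 and the technical SD of a single gene was 0.47. With normexp and loess these values were 1.15 and 0.32, so the change spanned fewer technical SDs in both settings.

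**Figure D3:**
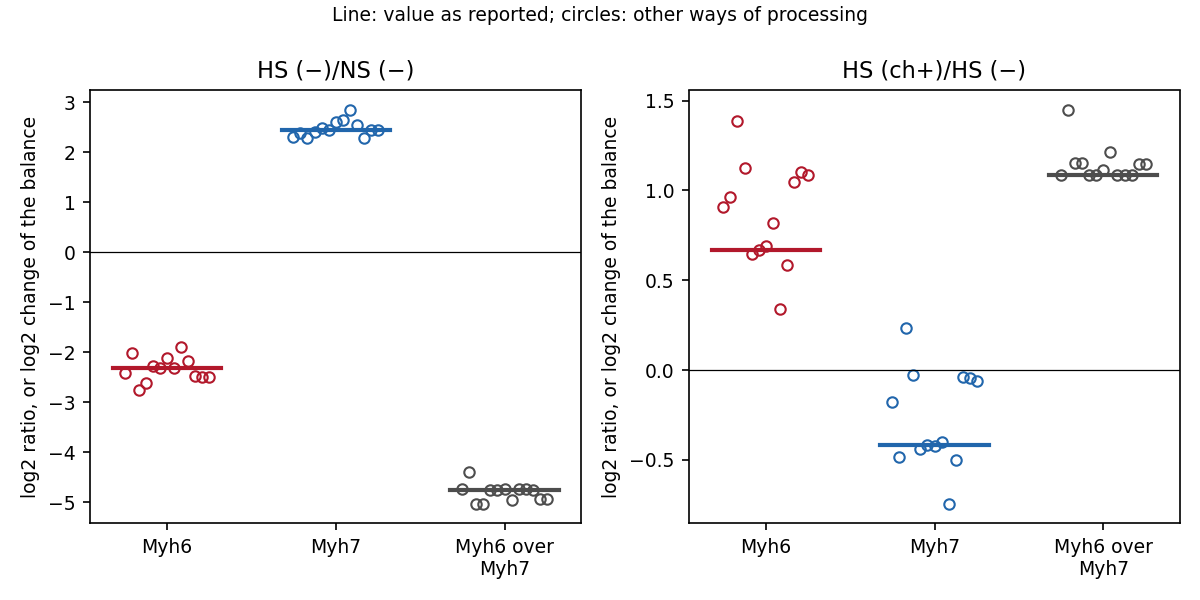
Log2 ratios of Myh6 and Myh7 and log2 change of their balance, HS (−)/NS (−) on the left and HS (ch+)/HS (−) on the right, with the value as reported (bars) and each of 13 other ways of processing (circles). The left panel shows each quantity on 1 side of 0 throughout, whereas on the right Myh7 ran from -0.74 to 0.23, Myh6 from 0.34 to 1.38 and the balance from 1.08 to 1.45.

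The last question was how far the treated ventricle stood from the control. HS (ch+)/NS (−) combines both arrays through their HS (−) channels. It compares pools labelled with the same dye. The technical SDs are the same as for a single array and make no allowance for the combination of 2 ratios. Myh6 had a ratio of 0.322 (log2 -1.64, 10.2 technical SD), again with the NS (−) spot saturated, and 1 gene had a lower one. This was the lowest ratio of any setting, and the alternatives gave up to 0.416, the value after Aquantile normalization (at least 2.40-fold lower). A full exchange of the HS (−) readings was not among these alternatives. Myh7 had a ratio of 4.09 (log2 2.03, 12.7 technical SD), and 25 genes had a higher one. A ratio under 0.5 was found for 0.145% of the genes, Myh6 included, and a ratio over 2 for 2.59%, Myh7 included. The measured balance was 12.7-fold lower than in NS (−) (log2 -3.67, 16.2 technical SD of a pair difference), and 9.91-fold to 14.6-fold lower over the 14 alternatives. The 9.91-fold came with the same HS (−) reading in both ratios, which then cancels.

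Expressed as a share of the log2 change between NS (−) and HS (−), the change with chaetocin was 29.1% for Myh6, 17.0% for Myh7 and 22.9% for their balance. As the saturated spot understates the fall of Myh6, it overstates the shares of Myh6 and of the balance within each setting, by an unknown amount. Over the 13 alternatives the share ran from 18.1% to 50.5% for Myh6, from -10.2% to 26.1% for Myh7, where a negative share is a change away from NS (−), and from 22.9% to 32.9% for the balance. The HS (−) signal stands in both changes, with opposite sign, so that an error in it moves both in the same direction along this scale.

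**Figure D4:**
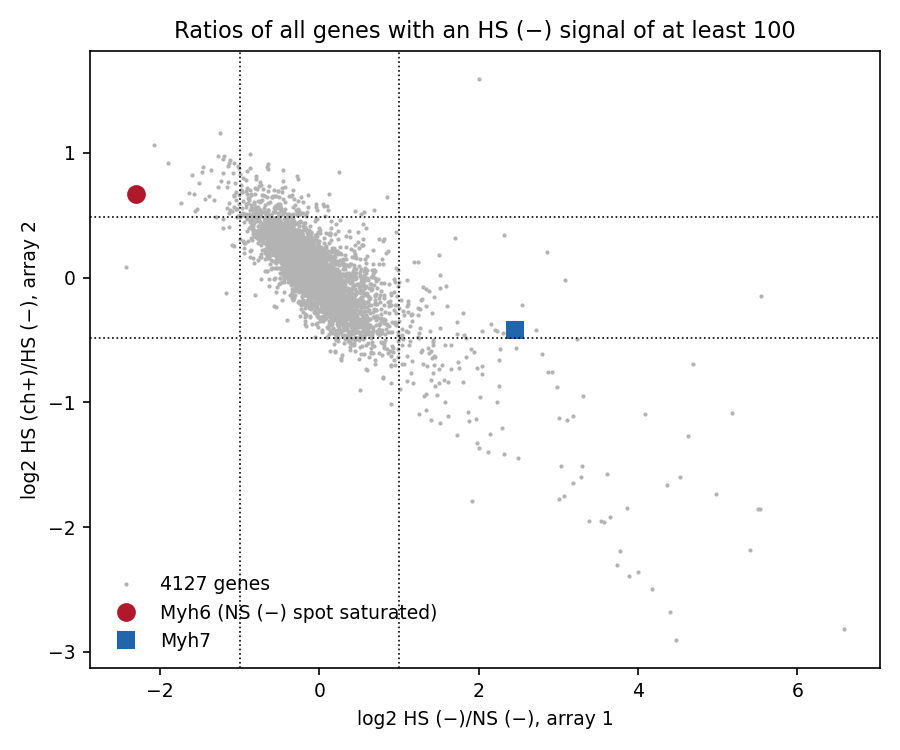
Log2 HS (−)/NS (−) from array 1 against log2 HS (ch+)/HS (−) from array 2 for 4127 genes (gray), Myh6 (red circle, with a saturated NS (−) spot, so that its true x value lies at the circle or to its left) and Myh7 (blue square), with dotted lines at the limits of 0.5 and 2 and of 0.714 and 1.4. HS (−) enters both axes, and the plane has Myh6 at -2.31 and 0.67 and Myh7 at 2.45 and -0.42.

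The genes nearest to each member in the plane of these 2 log2 ratios were then listed by distance. The distances from Myh6 start from its measured position, in which the NS (−) spot was saturated, so that they and their order are not exact. The nearest genes to that position were Dhrs7c (distance 0.46), a dehydrogenase of striated muscle, Pdp2 (0.48), a phosphatase that activates the pyruvate dehydrogenase complex, and Scn4b (0.57), a regulatory subunit of voltage-gated sodium channels. ENSRNOG00000020251 (0.60), which has no name here, and Fkbp4 (0.67), a co-chaperone of Hsp90, followed. The nearest gene, Dhrs7c, had a ratio of 0.238 for HS (−)/NS (−) and of 2.09 for HS (ch+)/HS (−). Like Myh6, the named 4 belong to the genes that the study had chosen on these same ratios, so that their pattern was fixed by the choice. Their HS (−) signals on array 1 were 142 to 456.

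For Myh7, which was within range throughout, the nearest gene, ENSRNOG00000003312 (distance 0.14), had ratios of 5.53 and 0.678, and ENSRNOG00000020030 (0.15) had ratios of 4.94 and 0.737. These and the other 3 of the nearest 5 have no name here, as the files list genes by ID only. For the same reason the other genes of the sarcomere, of thyroid hormone action and of the fetal gene program could not be followed. Of 101 genes on the lists of pathways and cell type markers, 3 had an ID with a name, and these were Myh6, Myh7 and Cd74, the invariant chain of antigen-presenting cells. Cd74 had a ratio of 0.363 for HS (−)/NS (−) and of 1.85 for HS (ch+)/HS (−). Its part in the results for the myosin genes was not tested. The label of the tissue could therefore not be checked with other genes, and the members, as the genes under study, give no separate check of it. By brightness, both members ranked between 38 and 57 in HS (−). In NS (−) and HS (ch+), Myh6 ranked 1 and 13, and Myh7 ranked 452 and 86.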

How the data were processed

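RNA from LV tissue was amplified, labelled with Cy3 or Cy5 and hybridized to 2 dual-color arrays. The authors deposited the median spot intensity at 635 nm (Cy5) and 532 nm (Cy3), merged from 3 scanner gains without normalization, and a table of log2 values with scale, centering and direction unstated. Recalculation from the intensities showed these to be log2 Cy3/Cy5 after subtraction of the blank mean (4553 spots, 5% trimmed at each end), for spots above this mean by 2 SD in both channels, minus the array median (0.17 and 0.38). All 12674 and 13639 deposited values were matched within 2.7e-05, and the deposited medians were 0.0020 and 0.0010. Array 1 gave HS (−)/NS (−), array 2 HS (ch+)/HS (−), and their product HS (ch+)/NS (−). As HS (−) was in Cy5, the direction rests on the dyes in the labels and on this match.

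Ratios were ranked over 4127 genes whose HS (−) signal reached 100 on each array. The balance is the Myh6 ratio over the Myh7 ratio on an array. Lower limits for Myh6 used loess and Aquantile in limma. The alternatives were local, normexp (offset 50) or no background subtraction, loess, loess within the 48 blocks, no centering, 50 added to each signal, other signal minimums, the deposited table, Aquantile and exchange of the HS (−) readings. For HS (ch+)/NS (−), the last of these put the same HS (−) reading in both ratios, and a full exchange was not run. Centering on genes with a signal of at least 100 after local, normexp or no background correction was added after seeing the data. The members, lists and alternatives were chosen with earlier results of these data known. Named genes were the members, the 5 nearest to each and list genes with a name. Symbols came from the study's list of 50 genes, 35 of whose accessions were found in RefSeq (GRCr8). RefSeq lists 0 of the array's IDs. That of Myh7 was given with the selection of the members. With 2 arrays, precision is limited by their number. The procedure was tested on simulated data, in which the changed genes were dimmer in HS (−) than either member. Spots as bright as those of the members were therefore not covered. Python 3.11.15, numpy 2.4.6, pandas 2.3.3, scipy 1.17.1, matplotlib 3.10.9, R 4.3.3 and limma 3.58.1 were used.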

Additional observations from a re-analysis of the deposited data

How the results depend on the processing

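Over 120 values of the members and their balance under the alternatives, 119 kept their direction, 74 moved by no more than the technical SD (for the balance, that of a pair difference), 45 moved by more, and 1 turned. Part of this outcome was fixed in advance. The deposited table repeats the values as reported, and settings that differ only in centering give the same balance. The counts therefore overstate how many separate checks were made. All values here are on the log2 scale. With the background beside each spot subtracted, Myh7 HS (ch+)/HS (−) turned to 0.23, and its HS (−)/NS (−) and HS (ch+)/NS (−) were 2.28 and 2.51. In the same order of HS (−)/NS (−), HS (ch+)/HS (−) and HS (ch+)/NS (−), Myh6 was then -2.74, 1.38 and -1.36, the balance in HS (−) against NS (−) was -5.02 and the technical SD 0.47. With that background and centering on genes with a signal of at least 100, Myh6 was -2.62 in HS (−)/NS (−) and 1.13 in HS (ch+)/HS (−), Myh7 was -0.026 in HS (ch+)/HS (−) and 2.38 in HS (ch+)/NS (−), and the balance was again -5.02. With normexp and loess, Myh6 was -2.48, 1.10 and -1.38, Myh7 was -0.044 in HS (ch+)/HS (−) and 2.41 in HS (ch+)/NS (−), and the technical SD was 0.32. Centering on genes of at least 100 after normexp gave -2.50, 1.09 and -1.41 for Myh6, and -0.059 and 2.38 for Myh7. Without background subtraction, HS (−)/NS (−) was -1.88 for Myh6 and 2.84 for Myh7, and HS (ch+)/HS (−) was 0.34 and -0.74. Without centering, Myh6 was -2.47, 1.05 and -1.43, and Myh7 was 2.28, -0.041 and 2.24. Loess gave -2.12 for HS (−)/NS (−) and -1.42 for HS (ch+)/NS (−) of Myh6, and within blocks 2.64 and 2.24 for Myh7. With 50 added to each signal, HS (ch+)/HS (−) was 0.91 for Myh6 and -0.18 for Myh7. With the HS (−) readings exchanged between arrays, Myh6 was -2.01 in HS (−)/NS (−) and 0.96 in HS (ch+)/HS (−), and the balance was -4.40 and 1.45. With the same HS (−) reading in both ratios, so that it cancels, HS (ch+)/NS (−) was -1.34 for Myh6 and -3.31 for the balance. A full exchange of the readings was not run for HS (ch+)/NS (−). Aquantile gave -1.26 for Myh6 and -3.37 for the balance in HS (ch+)/NS (−). Settings moved the median of the genes by over 0.1 in HS (ch+)/HS (−) with the background beside each spot (0.24), without background subtraction (-0.27), with 50 added (0.19) and without centering (0.38), and in HS (−)/NS (−) without background subtraction (0.32) and without centering (-0.17). Without a signal minimum, 2.75% of genes were under 0.5 in HS (−)/NS (−), 8.45% under 0.714 in HS (ch+)/HS (−) and 1.43% under 0.5 in HS (ch+)/NS (−).

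No paired analysis was possible because each group was 1 pool and the labels give no replicate numbers. A scan at a lower gain could not be used in place of the saturated Myh6 spot, as the files hold 1 value merged from 3 gains, and that alternative was not run. Nothing was left out in turn, since each comparison had 1 array. Values of the members were far above the blank spots, so that the scanner ceiling, the background beside the spots and the lack of replicates limit them, and low signal does not. Differences between rats of a group cannot be seen in a pool.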
